A study of Mus musculus with 6 samples.

Results

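Serpins are a large family of proteins, most of which inhibit proteases by a suicide mechanism: the protease cuts an exposed loop of the serpin, the loop inserts into the body of the protein, and the protease is dragged along and locked in a distorted, inactive state. Clade A and several smaller clades are secreted and act in plasma and tissue fluid on the proteases of coagulation, fibrinolysis, complement and inflammation, and some members carry hormones instead of inhibiting. Clade B serpins lack a classical signal peptide and work mainly inside cells, where leukocytes use them against their own granule proteases and keratinocytes against lysosomal cathepsins and trypsin-like enzymes.

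The serpin genes described here are those with a single symbol in the array annotation that starts with Serpin, apart from Serpinh1, Serpinb2 and Serpine2. The rule gave 46 of 19938 genes, each with 1 probe set. By the letter in the symbol 15 belong to clade A, 23 to clade B, 1 each to clades C, D, E and G, and 2 each to clades F and I. Their transcripts were read on Affymetrix mouse gene arrays, from the skin of inbred male BALB/c mice 5 to 6 weeks old. The groups were intact, uninjured skin, wounds on day 1 and wounds on day 4, with 2 arrays each and 6 in all. Each wounded mouse carried 2 full-thickness wounds of 4 mm on the shaved back, made down to the fascia, and samples were cut out with a punch of 8 mm, so they hold the wound and neighbouring skin. By the labels the replicates are biological, with no word on whether 1 animal or a pool stands behind each array, so the p-values measure the spread between these samples, which may in part be technical. All values are log2 intensities after RMA, a procedure that corrects background, gives the arrays a common distribution and summarises the probes of a probe set. Levels of different genes are not compared, because the probes differ.

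The 6 arrays had lower quartiles of 5.29 to 5.37 and medians of 6.89 to 6.93 over all probe sets. Across genes, which are not independent replicates, the correlation between the 2 arrays of a group was 0.9967 for intact skin, 0.9891 for day 1 and 0.9861 for day 4. Of 7 measured skin markers (Krt5, Krt14, Krt1, Krt10, Col1a1, Col3a1 and Lor) none lay under the lower quartile on any array, and their median level was at least 11.71. Of the serpin genes, 16 lay under the lower quartile on all 6 arrays. Signal was not tested against background, so the values of these genes may be mostly background.

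RefSeq windows of assembly GRCm38.p6, from 250 bases before to 50 after a start, were found for 39 of the 46 serpin genes and held 46 windows. They were searched on both strands for TTCNNNGAA, the palindrome bound by STAT factors, for TGANTCA, that of AP-1, for the NF-kB consensus and for TATAAA, the TATA box. TGANTCA stood in 8 of the 46 windows (17.4%), against 7.81% of all 32851 windows. TATAAA stood in 13 (28.3%) against 13.6%, TTCNNNGAA in 5 (10.9%) against 8.3%, and the NF-kB consensus in 0 against 8.46%. The serpin genes that passed in at least 1 comparison held 17 of the windows. Of these, 3 (17.6%) held TGANTCA, near the share of all serpin windows. TATAAA stood in 6 (35.3%), TTCNNNGAA in 1 (5.88%) and the NF-kB consensus in 0. The AP-1 palindrome was found beside the starts of Serpinb12, Serpinb7 and Serpinb10, which rose in wounds, and of their neighbour Serpinb8, which did not pass the test. Their windows are shown for that reason, with Serpinb6a as the serpin that passed and held the STAT palindrome. Capitals mark the AP-1, TATA box and STAT letters given above, on either strand, and a match is a description of the letters, not a sign of binding. The windows are chr1:106934199-106934498 (plus strand) for Serpinb12, chr1:107422439-107422738 (plus) for Serpinb7, chr1:107528753-107529052 (plus) for Serpinb10, chr1:107589756-107590055 (plus) for Serpinb8 and chr13:34002745-34003044 (minus) for Serpinb6a.
Serpinb12: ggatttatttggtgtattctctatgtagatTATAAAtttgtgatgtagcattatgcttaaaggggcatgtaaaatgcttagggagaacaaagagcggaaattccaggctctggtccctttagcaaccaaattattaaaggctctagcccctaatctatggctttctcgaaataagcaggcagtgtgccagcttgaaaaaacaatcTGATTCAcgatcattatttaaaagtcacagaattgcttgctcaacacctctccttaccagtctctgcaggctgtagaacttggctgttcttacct
Serpinb7: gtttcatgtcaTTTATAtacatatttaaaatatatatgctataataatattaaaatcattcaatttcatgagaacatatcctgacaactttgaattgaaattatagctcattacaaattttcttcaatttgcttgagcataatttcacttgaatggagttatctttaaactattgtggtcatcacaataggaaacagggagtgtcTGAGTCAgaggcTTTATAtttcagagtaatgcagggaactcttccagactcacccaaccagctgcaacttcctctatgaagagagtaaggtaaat
Serpinb10: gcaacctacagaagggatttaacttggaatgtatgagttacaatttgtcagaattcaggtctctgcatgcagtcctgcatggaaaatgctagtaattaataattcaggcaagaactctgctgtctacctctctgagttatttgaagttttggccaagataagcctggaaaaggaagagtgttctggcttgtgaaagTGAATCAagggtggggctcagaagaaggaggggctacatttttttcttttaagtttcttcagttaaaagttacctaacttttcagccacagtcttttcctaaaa
Serpinb8: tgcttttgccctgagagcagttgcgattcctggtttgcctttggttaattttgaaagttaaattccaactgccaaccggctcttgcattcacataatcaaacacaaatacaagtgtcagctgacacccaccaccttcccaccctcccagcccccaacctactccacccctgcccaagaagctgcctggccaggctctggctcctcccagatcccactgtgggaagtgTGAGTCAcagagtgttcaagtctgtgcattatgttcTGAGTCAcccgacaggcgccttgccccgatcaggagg
Serpinb6a: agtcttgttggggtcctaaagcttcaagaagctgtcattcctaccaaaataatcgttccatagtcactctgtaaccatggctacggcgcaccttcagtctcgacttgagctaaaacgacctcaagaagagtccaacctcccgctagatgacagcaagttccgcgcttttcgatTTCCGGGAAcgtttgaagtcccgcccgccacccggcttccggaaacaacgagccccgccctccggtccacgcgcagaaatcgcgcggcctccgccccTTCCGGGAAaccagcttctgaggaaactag
The first letter of TGANTCA lay 45 bases before the start in Serpinb12 and in Serpinb7, and 54 bases before it in Serpinb10. Serpinb8 held 2 matches, the first of which began 23 bases before the start and the other at base 14 counted from the start as 1. Serpina1c, Serpina1d, Serpinb5 and Serpinb11, which did not pass the test, also held the palindrome. In Serpinb6a the STAT palindrome began 77 bases before the start and again at base 21 counted in that way. Serpinb12 and Serpinb6a each have another window in the table without a match to either palindrome.

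Setting day 1 wounds against intact skin shows which serpin genes differed early after injury, and setting day 4 wounds against it which differed later. On day 1, 12 of the 46 serpin genes (26.1%) were higher than in intact skin and 4 (8.70%) were lower, at an adjusted p under 0.05 over all genes. Of all 19938 genes, 14.7% were higher and 14.6% lower in the same comparison, or 29.3% in either direction. On day 4, 15 serpin genes (32.6%) were higher and 4 (8.70%) lower, against 14.8% and 12.1% of all genes, or 26.9% in either direction. A moderated F test over the 3 groups passed for 17 serpin genes (37.0%), against 30.7% of all genes. The 4 genes that were lower, Serpina5, Serpina4-ps1, Serpinb13 and Serpinc1, were the same on both days. In all 19 genes passed in at least 1 comparison, 16 of them on both days, and both wound groups were set against the same intact arrays. The median log2 difference over the 46 was 0.0175 on day 1 and 0.0025 on day 4, against −0.04 and −0.03 over all genes.

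**Figure D1:**
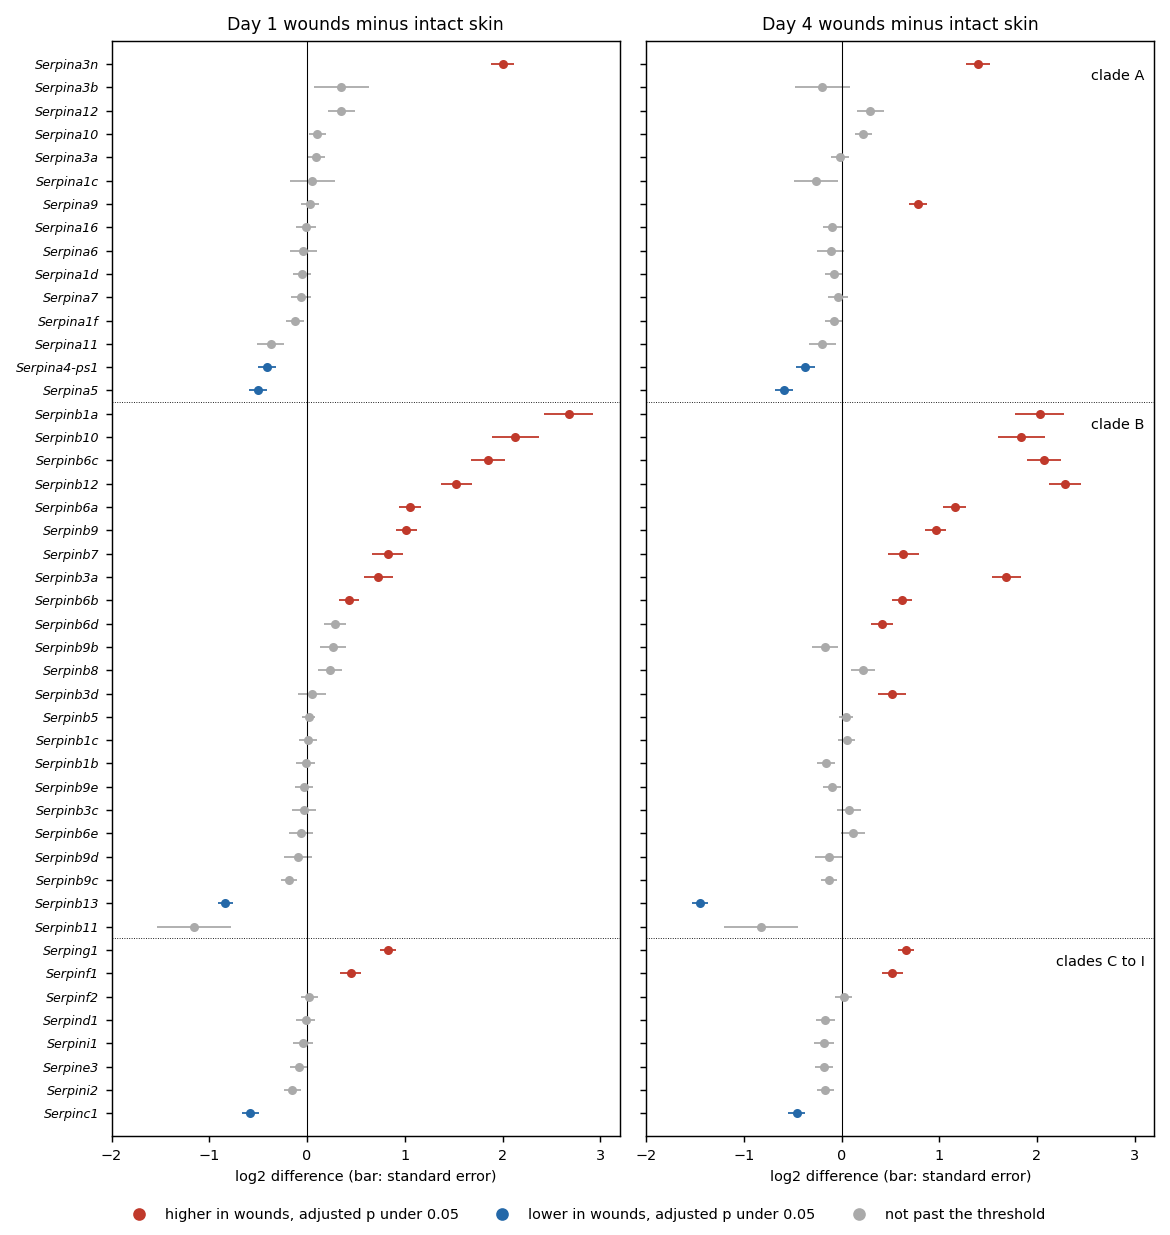
Log2 difference of each of the 46 serpin genes from intact skin in day 1 wounds (left) and day 4 wounds (right), by clade, with the standard error of the fit. Colours mark genes with an adjusted p under 0.05: 12 were higher and 4 lower on day 1, and 15 were higher and 4 lower on day 4, most of the higher ones in clade B.

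The clades differed in their counts. In clade B 9 of 23 genes (39.1%) were higher on day 1 and 11 (47.8%) on day 4, with medians of 0.235 and 0.22. In clade A 1 of 15 (6.67%) was higher on day 1 and 2 (13.3%) on day 4, with medians of −0.01 and −0.08. On each day 2 of 15 clade A genes (13.3%) and 1 of 23 clade B genes (4.35%) were lower. Of all genes 14.7% were higher and 14.6% lower on day 1, and 14.8% and 12.1% on day 4. The clade A shares on day 4 were thus near those of all genes. Among the 8 genes of the other clades 2 were higher and 1 was lower on both days, with medians of −0.0275 and −0.165. A rise of at least 2-fold with an adjusted p under 0.05 was seen for 7 serpin genes on day 1 (15.2%) and 7 on day 4 (15.2%), against 4.86% and 3.79% of all genes, and 6 of the 7 on each day were clade B genes. The difference between clades was not tested. The clade B genes higher on day 4 included the close relatives Serpinb6a, Serpinb6b, Serpinb6c and Serpinb6d, whose probes may be shared. They also included Serpinb3a and Serpinb3d, which lay under the lower quartile on all 6 arrays. Of the 27 genes that passed in no comparison, 14 lay under the lower quartile on all 6 arrays.

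In clade A, Serpina3n, a secreted acute phase inhibitor related to human alpha-1-antichymotrypsin, was higher on both days. Its log2 intensity was 10.68 and 10.90 in intact skin, 12.66 and 12.92 in day 1 wounds, and 12.13 and 12.24 in day 4 wounds. The 3 groups did not overlap, and both wound groups lay above intact skin. Serpina3n was 4-fold higher on day 1 (log2 difference 2.00, SE 0.12, adjusted p = 1.61e-04) and 2.63-fold higher on day 4 (1.40, SE 0.12, adjusted p = 7.88e-04). The day 4 level was below that of day 1 by 0.61 without passing the test (adjusted p = 0.0659). Its near relative Serpina3b was not called, with 8.93 and 9.47 in day 1 wounds against 8.93 and 8.77 in intact skin, and Serpina3a differed by 0.095 on day 1 (adjusted p = 0.481). The 7 Serpina3 genes that lie between these and Serpina3n were not analysed here, and probes of these relatives may be shared.

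Serpina9, known in humans as a serpin of germinal centre B cells, was the late mover of clade A. It had 5.54 and 5.69 in intact skin, 5.70 and 5.59 in day 1 wounds and 6.34 and 6.45 in day 4 wounds. Intact skin and day 1 wounds overlapped, and both day 4 arrays were higher. The rise on day 4 was 1.72-fold against intact skin (log2 difference 0.78, SE 0.09, adjusted p = 0.00209). Serpina5, the inhibitor of activated protein C, had 5.07 and 4.92 in day 1 wounds and 4.99 and 4.83 in day 4 wounds, both below its 5.50 on each intact array. It fell by 0.51 on day 1 (adjusted p = 0.00815) and by 0.59 on day 4 (adjusted p = 0.00556), at levels under the lower quartile on all 4 wound arrays. Its day 1 call was lost without day 1 wound replicate 2 or either intact array, with adjusted p-values of up to 0.0548. The pseudogene Serpina4-ps1 fell by 0.41 on day 1 and 0.37 on day 4 (adjusted p = 0.0196 and 0.0308). Both calls were lost without either intact array, the day 1 call also without either day 1 array and the day 4 call without day 4 wound replicate 1, with adjusted p-values of up to 0.134.

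Several clade A genes, most of them known from liver, were dim. Serpina1c, Serpina1d and Serpina1f of the alpha-1-antitrypsin group, the corticosteroid carrier Serpina6 and the thyroxine carrier Serpina7 lay under the lower quartile on all arrays and differed from intact skin by between −0.26 and 0.06. Serpina10 and Serpina11 lay above the lower quartile on every array and did not pass, and the brighter of 2 probe sets shared by Serpina1a to Serpina1e read 7.50 to 7.82. Of 11 hepatocyte markers 3 were higher on day 1 (Ttr, Hp and Trf) and 1 was lower on day 4 (Apoa2), and their median level lay at 5.77 to 5.97 in intact skin, 5.69 to 5.86 in day 1 wounds and 5.85 to 6.05 in day 4 wounds. Serpina12, called vaspin, an adipokine that inhibits kallikrein 7 in the epidermis, had 7.38 and 7.32 in intact skin, 7.77 and 7.63 in day 1 wounds and 7.44 and 7.85 in day 4 wounds. All 4 wound arrays were above both intact ones, yet the differences of 0.35 and 0.30 (SE 0.14) did not pass (adjusted p = 0.112 and 0.170).

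Serpinb1a, the inhibitor of the neutrophil enzymes elastase, proteinase 3 and cathepsin G, had 7.33 and 7.61 in intact skin, 9.80 and 10.49 in day 1 wounds and 9.28 and 9.71 in day 4 wounds. No wound array overlapped with intact skin. It was 6.39-fold higher on day 1, the highest fold of the 46 genes (log2 difference 2.68, SE 0.25, adjusted p = 7.07e-04), and 4.07-fold higher on day 4 (2.03, SE 0.25, adjusted p = 0.00248). Serpinb1b and Serpinb1c, its closest relatives by name, lay under the lower quartile on all arrays and differed from intact skin by between −0.16 and 0.05, without passing.

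Serpinb10, known in humans as bomapin of myeloid cells, had 7.55 and 7.62 in intact skin, 9.77 and 9.66 in day 1 wounds, and 9.02 and 9.83 in day 4 wounds. The wound arrays lay apart from intact skin, and the 2 day 4 arrays were spread more widely than those of the other groups. The rise was 4.38-fold on day 1 (log2 difference 2.13, SE 0.24, adjusted p = 0.00132) and 3.58-fold on day 4 (1.84, SE 0.24, adjusted p = 0.00298). Without day 4 wound replicate 2 the day 4 difference was 1.44, and it passed under every alternative tried. Serpinb9, the inhibitor of granzyme B that protects cytotoxic cells from their own enzyme, had 5.23 and 5.46 in intact skin, 6.41 and 6.31 in day 1 wounds and 6.23 and 6.39 in day 4 wounds. Its wound arrays were all above intact skin, by 2.02-fold on day 1 (adjusted p = 0.00108) and 1.95-fold on day 4 (adjusted p = 0.00177). One intact array lay under the lower quartile, so the folds are approximate. The 4 relatives Serpinb9b, Serpinb9c, Serpinb9d and Serpinb9e did not pass on either day.

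The Serpinb6 group, which in rodents comprises several duplicated genes, rose in most of its members. Serpinb6a, an inhibitor of cathepsin G and trypsin-like proteases, had 9.06 and 9.36 in intact skin, 10.22 and 10.30 in day 1 wounds and 10.31 and 10.42 in day 4 wounds. Its fold was 2.07 on day 1 (adjusted p = 0.00119) and 2.23 on day 4 (adjusted p = 0.00120). Serpinb6c had 5.91 and 5.63 in intact skin, 7.49 and 7.75 in day 1 wounds and 7.63 and 8.06 in day 4 wounds. It was 3.61-fold higher on day 1 (log2 difference 1.85, SE 0.17, adjusted p = 7.32e-04) and 4.21-fold on day 4 (2.08, SE 0.17, adjusted p = 7.12e-04). For both genes every wound array lay above both intact arrays, and the days overlapped for Serpinb6c but not for Serpinb6a.

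Serpinb6b rose by 0.43 on day 1 and 0.62 on day 4 (adjusted p = 0.0226 and 0.00734), and Serpinb6d by 0.41 on day 4 (adjusted p = 0.0397), with 0.29 on day 1 (adjusted p = 0.109). These smaller calls depended on single arrays. That of Serpinb6b on day 1 was lost without any 1 of the intact or day 1 arrays and that on day 4 without intact replicate 2, and that of Serpinb6d was lost without any 1 array except day 4 wound replicate 1, with adjusted p-values of up to 0.113, 0.0545 and 0.177. Serpinb6e differed by −0.07 and 0.12, without passing. Probes of these close relatives may be shared, so the rise of one member can add to the signal of another, and the share of each was not tested.

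**Figure D2:**
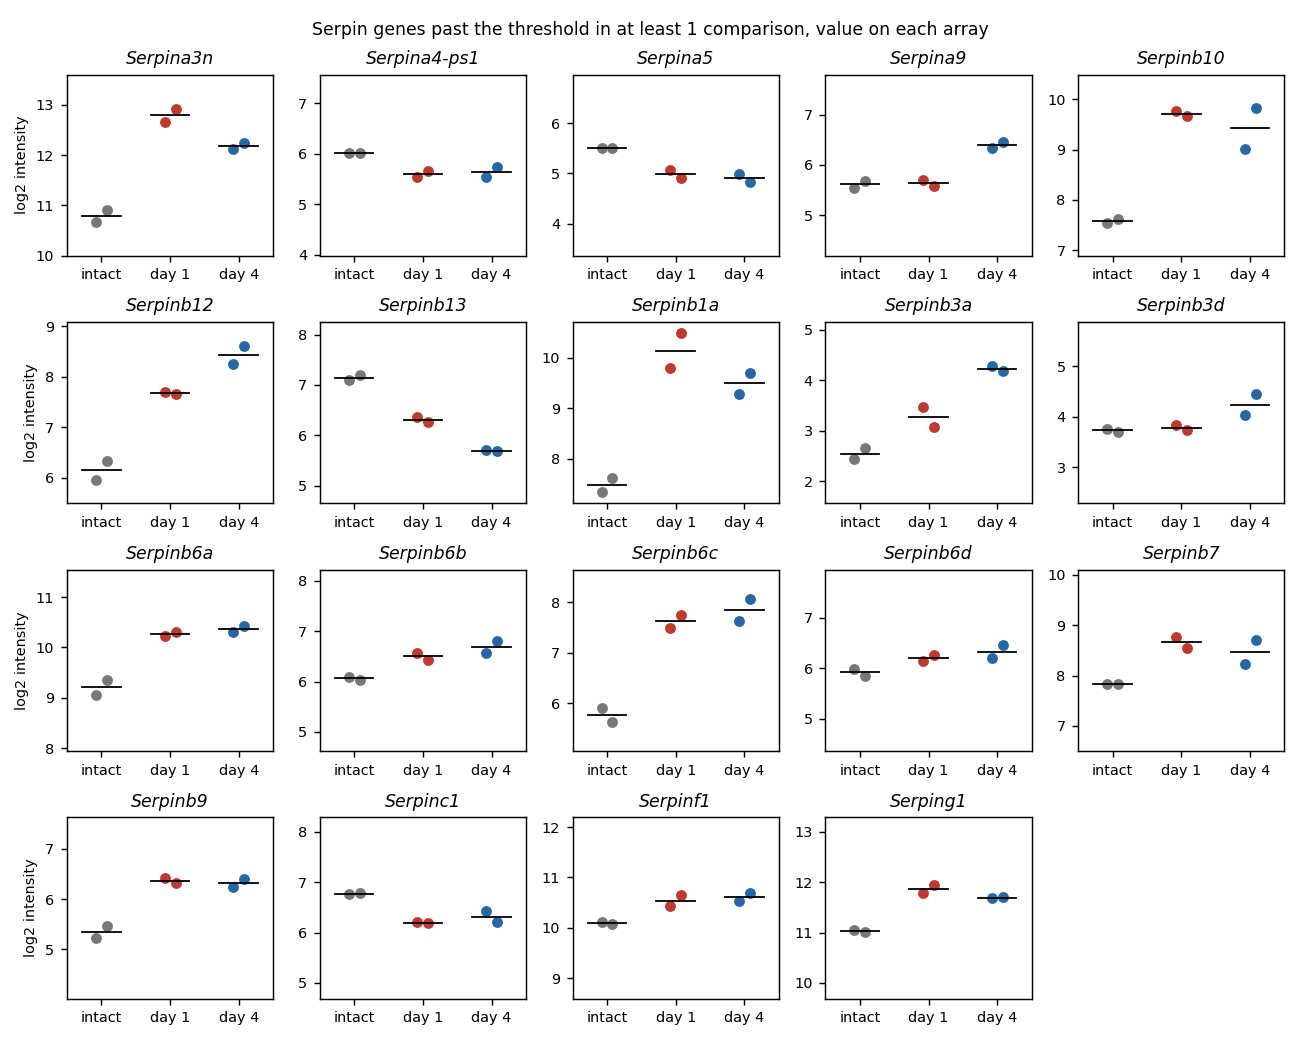
Log2 intensity on each array of the 19 serpin genes that passed in at least 1 comparison, for intact skin (grey), day 1 wounds (red) and day 4 wounds (blue), with bars at the group means and the same span in every panel. Wound arrays of Serpina3n, Serpinb1a, Serpinb10, Serpinb6c and Serpinb12 lie clear of intact skin, Serpina9 is high on day 4, and Serpinb13 is lowest on day 4.

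Many leukocyte markers were also higher in the wound biopsies. Of 12 neutrophil markers 10 were higher on day 1 and 9 on day 4, and their median level lay at 5.96 to 6.305 in intact skin, 10.285 to 10.64 in day 1 wounds and 9.165 to 9.455 in day 4 wounds. Between the days 4 of them were lower on day 4 and 0 higher, against 1.14% and 1.09% of all genes. Over the same step Serpinb6a differed by 0.105, Serpinb6c by 0.225, Serpinb9 by −0.05, Serpinb1a by −0.65 and Serpinb10 by −0.29, and none passed. All 11 monocyte and macrophage markers were higher on both days, with medians of 7.92 to 8.01 in intact skin, 10.22 to 10.45 in day 1 wounds and 10.08 to 10.18 in day 4 wounds. Between the days 1 of them was higher and 1 lower on day 4. Of 8 markers of cytotoxic lymphocytes 5 were higher on day 1 and 4 on day 4, and none passed between the days. In such bulk samples more cells of a type and more RNA per cell cannot be told apart, and the part of these cells in the rise of Serpinb1a, Serpinb6a, Serpinb6c, Serpinb9 and Serpinb10 was not tested.

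Serpinb12, an inhibitor of trypsin-like proteases found in epithelia, had 5.96 and 6.33 in intact skin, 7.69 and 7.65 in day 1 wounds and 8.25 and 8.61 in day 4 wounds. The 3 groups did not overlap and the level was higher on each later day. It was 2.88-fold higher on day 1 (log2 difference 1.53, SE 0.16, adjusted p = 0.00105) and 4.87-fold higher on day 4 (2.29, SE 0.16, adjusted p = 4.06e-04). The day 4 rise was the highest of the 46 genes on that day. The step of 0.76 between the days did not pass (adjusted p = 0.0722).

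Serpinb13, an inhibitor of lysosomal cathepsins in stratified epithelium, had 7.09 and 7.20 in intact skin, 6.36 and 6.26 in day 1 wounds and 5.70 and 5.69 in day 4 wounds. Here too the 3 groups did not overlap, in the opposite order. Serpinb13 fell by 0.84 on day 1 (SE 0.08, adjusted p = 7.56e-04) and by 1.45 on day 4 (SE 0.08, adjusted p = 2.03e-04). Among genes with an adjusted p under 0.05, it was the single serpin gene lower by at least 2-fold on day 4 (2.17% of the 46, against 1.75% of all genes), and 0 met both conditions on day 1 (against 2.41%).

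Serpinb3a, a mouse relative of the human squamous cell carcinoma antigens, had 2.43 and 2.66 in intact skin, 3.47 and 3.08 in day 1 wounds and 4.28 and 4.18 in day 4 wounds. Its groups did not overlap, but all 6 values lay under the lower quartile, so its folds are approximate. The difference was 0.73 on day 1 (adjusted p = 0.0118) and 1.69 on day 4 (adjusted p = 7.94e-04), and the day 1 call was lost without intact replicate 1 (adjusted p = 0.0838). Serpinb3d, at 3.76 and 3.70 in intact skin, 3.83 and 3.73 in day 1 wounds and 4.03 and 4.46 in day 4 wounds, passed on day 4 (0.52, adjusted p = 0.0397). That call was lost without any 1 array except day 4 wound replicate 1 (adjusted p of up to 0.157). Serpinb3c did not pass, and probes of the Serpinb3 relatives may be shared.

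Serpinb7, expressed in the upper epidermis and mutated in a human palmoplantar keratosis, had 7.84 and 7.83 in intact skin, 8.77 and 8.55 in day 1 wounds and 8.23 and 8.70 in day 4 wounds. It rose by 0.83 on day 1 (adjusted p = 0.0105) and 0.63 on day 4 (adjusted p = 0.0307). Both calls were lost without either intact array, the day 1 call also without day 1 wound replicate 1 and the day 4 call without day 4 wound replicate 2, with adjusted p-values of up to 0.0659 and 0.134. Serpinb11 had 8.33 and 8.43 in intact skin, 7.86 and 6.58 in day 1 wounds and 7.72 and 7.39 in day 4 wounds. All its wound arrays were below intact skin, yet the day 1 arrays were far apart, and the differences of −1.16 and −0.83 (SE 0.38) did not pass (adjusted p = 0.0626 and 0.157).

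Serpinb5, or maspin, a clade B protein of epithelial cells that does not inhibit proteases, was bright on every array. It had 11.76 and 11.78 in intact skin, 11.79 and 11.78 in day 1 wounds and 11.85 and 11.78 in day 4 wounds. The differences of 0.02 and 0.05 (SE 0.07) were smaller than their standard error (adjusted p = 0.895 and 0.677). Serpinb8, an inhibitor of furin, was at 0.24 and 0.22 above intact skin without passing (adjusted p = 0.204 and 0.232).

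Of 9 wound-edge keratinocyte markers 7 were higher and 1 was lower on each day, with median levels of 8.47 to 8.48 in intact skin, 11.07 to 11.14 in day 1 wounds and 11.32 to 11.39 in day 4 wounds. Of 9 markers of differentiated epidermis 4 were higher and 3 lower on day 1, and 5 were higher and 3 lower on day 4. Of 15 hair shaft and inner root sheath genes 10 were lower on day 1 and 4 on day 4, with a median of 11.93 and 11.94 in intact skin, 7.91 and 6.08 in day 1 wounds and 10.19 and 6.40 in day 4 wounds. The median of the hair genes and the level of Serpinb11, which did not pass, were both lowest on day 1 wound replicate 2. Single hair genes were lowest on another array. The first replicates of the wound groups differed in opposite directions. There the hair median was lower on day 1 than on day 4 (7.91 against 10.19), whereas Serpinb11 was higher (7.86 against 7.72). The part of these cell groups in the differences of Serpinb12, Serpinb13, Serpinb3a, Serpinb3d, Serpinb7 and Serpinb11 was not tested.

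Serping1, the inhibitor of the first complement component and of plasma kallikrein, had 11.06 and 11.02 in intact skin, 11.79 and 11.95 in day 1 wounds and 11.69 and 11.70 in day 4 wounds. All wound arrays were higher than both intact ones, by 1.78-fold on day 1 (log2 difference 0.83, SE 0.08, adjusted p = 8.57e-04) and 1.57-fold on day 4 (adjusted p = 0.00264). Serpinf1, pigment epithelium-derived factor, a secreted protein that restrains vessel growth and does not inhibit proteases, had 10.11 and 10.08 in intact skin, 10.43 and 10.65 in day 1 wounds and 10.53 and 10.70 in day 4 wounds. It rose by 0.45 on day 1 (adjusted p = 0.0206) and 0.52 on day 4 (adjusted p = 0.0136). Both calls were lost without either intact array, the day 1 call also without day 1 wound replicate 2 and the day 4 call without day 4 wound replicate 2, with adjusted p-values of up to 0.106 and 0.0775.

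Serpinc1, antithrombin, the plasma inhibitor of thrombin and factor Xa, had 6.76 and 6.79 in intact skin, 6.21 and 6.18 in day 1 wounds and 6.42 and 6.21 in day 4 wounds. It was lower on every wound array, and fell by 0.58 on day 1 (adjusted p = 0.00463) and 0.46 on day 4 (adjusted p = 0.0131). The day 4 call was lost without day 4 wound replicate 2 or either intact array (adjusted p of up to 0.0753). The other 5 genes, the thrombin inhibitor Serpind1 (heparin cofactor II), the plasmin inhibitor Serpinf2 (alpha-2-antiplasmin), neuroserpin (Serpini1), Serpini2 and Serpine3, differed from intact skin by −0.15 to 0.02 on day 1 and −0.18 to 0.02 on day 4, and none passed.

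Markers of other cell types also moved in these samples. Of 10 fibroblast markers 5 were higher on day 1 and 7 on day 4, with 1 lower on each day, and their median level lay at 10.08 to 10.105 in intact skin, 10.615 to 10.835 in day 1 wounds and 11.08 to 11.225 in day 4 wounds. Of 9 endothelial markers 7 were higher on day 1 and 8 on day 4, and none was lower, with medians of 7.70 to 7.84 in intact skin, 8.57 to 8.64 in day 1 wounds and 8.30 to 8.45 in day 4 wounds. Of 12 skeletal muscle markers 10 were higher on day 1 and 6 on day 4, and none was lower. The part of these cells in the differences of Serping1, Serpinf1 and Serpinc1 was not tested.

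Between the days, 2 serpin genes (4.35%) were higher and 1 (2.17%) was lower on day 4 than on day 1, against 1.09% and 1.14% of all genes, or 2.23% in either direction. Serpinb3a was 1.94-fold higher (log2 difference 0.96, SE 0.15, adjusted p = 0.0374) and Serpina9 1.68-fold higher (0.75, SE 0.09, adjusted p = 0.0233) on day 4. All 6 values of Serpinb3a lay under the lower quartile, so its fold is approximate. Serpinb13 was lower by 0.62 (log2 difference −0.62, SE 0.08, adjusted p = 0.0291). In each case the 2 arrays of day 4 did not overlap with those of day 1. Leaving out any 1 of the 6 arrays ended all 3 calls, with adjusted p-values of up to 0.156, 0.146 and 0.132. Serpina3n, Serpinb1a and Serpinb10 had lower means on day 4 than on day 1 by 0.61, 0.65 and 0.29, none of which passed.

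Most of these genes lie in 3 runs of serpin genes, uninterrupted by other protein-coding genes in RefSeq. The run on chromosome 1 holds 12 genes, of which 10 were analysed. On day 4, 5 of these were higher and 1 was lower, and neighbours moved apart: Serpinb12 and Serpinb3a, which were higher, flank Serpinb13, which was lower, and Serpinb5 on the other side of Serpinb12 did not pass. The run on chromosome 13 holds 16 genes, of which 13 were analysed, and 6 were higher and none lower on day 4. The genes that passed there lay towards both ends of the run, Serpinb1a, Serpinb6b and Serpinb9 at one and Serpinb6d, Serpinb6c and Serpinb6a at the other. The run on chromosome 12 holds 23 clade A genes, of which 13 were analysed. There Serpina3n at one end was higher, 7 genes beside it were not analysed here, and 10 of the other 12 did not pass on day 4. In this run 2 of the 13 were higher on day 4, a share near that of all genes, and 1 was lower. The day 4 counts of the 3 runs stand against 14.8% of all genes higher and 12.1% lower.

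**Figure D3:**
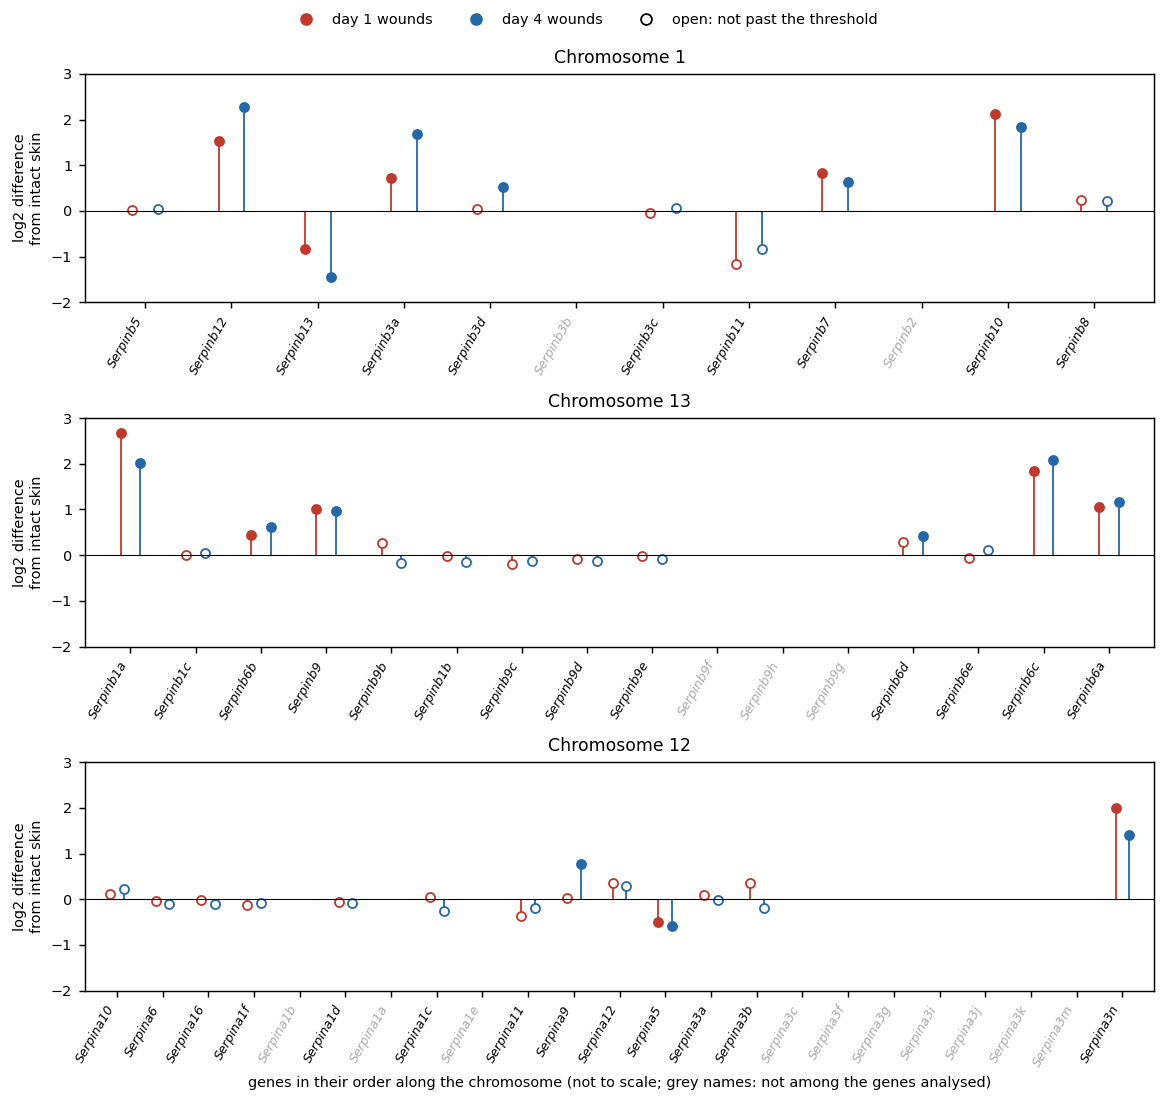
Log2 difference from intact skin on day 1 (red) and day 4 (blue) for serpin genes in their order along chromosomes 1, 13 and 12, with open circles for differences that did not pass and grey names for genes not among those analysed. On chromosome 1 Serpinb13 falls between the higher Serpinb12 and Serpinb3a, and on chromosome 13 the higher genes stand at both ends of the run.

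Proteases, some of them targets of serpins, with genes of their pathways, and inhibitors of other families were counted beside the serpin genes. Each count below stands against 14.7% of all genes higher and 14.6% lower on day 1, and 14.8% and 12.1% on day 4. Among 11 serine proteases of neutrophils and lymphocytes, 2 were higher and none lower on each day, a share near that of all genes, with medians of −0.08 and −0.11. Granzyme B (Gzmb), the target of Serpinb9, had a mean of 8.16 in day 1 wounds, against 5.54 in intact skin (log2 difference 2.62, adjusted p = 0.00559), and 7.15 in day 4 wounds (1.61, adjusted p = 0.0360). Its day 1 arrays were far apart, at 8.91 and 7.40, both above the 5.58 and 5.50 of intact skin. The targets of Serpinb1a, singled out after their values were seen, did not pass on either day: elastase (Elane) differed by −0.08 and −0.12, proteinase 3 (Prtn3) by −0.10 and −0.30 and cathepsin G (Ctsg), under the lower quartile on all arrays, by −0.12 and −0.11. These are RNA levels, and the amount of the proteases as protein was not measured.

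Of 14 genes of plasminogen activation and coagulation 5 were higher on day 1 and 6 on day 4, and none was lower. Among them were the urokinase receptor Plaur (log2 difference 3.34 and 2.66), factor X (F10, 2.61 and 1.15), a target of antithrombin, and factor VII (F7, 0.89 and 0.27). These counts are not of proteases alone. The receptor Plaur, the cofactor F3 and the growth factor Hgf are not proteases, and each was higher on both days. Of 7 complement proteases, some of them targets of Serping1, 6 were higher on day 1 and 5 on day 4, with medians of 0.77 and 0.71. Factor B (Cfb) was higher by 2.42 and 2.19, and C1s1, which Serping1 inhibits, by 1.22 and 1.56. Of 10 cysteine cathepsins 5 were higher on each day and 1 lower on day 1. Cathepsin S (Ctss) rose by 2.94 and 3.01 and cathepsin K (Ctsk) by 1.30 and 1.72, while Ctsf fell by 0.71 on day 1.

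Of 16 epidermal serine proteases 6 were higher and 2 lower on day 1, and 7 were higher and 3 lower on day 4. The kallikrein Klk8 rose by 0.71 and 1.31 and the membrane protease Tmprss4 by 1.04 and 1.27, whereas matriptase (St14) was at −1.28 and −1.05 and prostasin (Prss8) at −1.31 and −1.21. Among 9 mast cell proteases 5 were higher on day 1, and 4 were higher and 1 lower on day 4. Of 21 inhibitors of other families 11 were higher and 2 lower on day 1, and 10 were higher and 1 lower on day 4, with medians of 0.285 and 0.175. The stefin-type genes Stfa3 (3.75 and 5.13), Stfa2 (3.98 and 3.79) and Csta3 (4.08 and 4.21) and the leukocyte protease inhibitor Slpi (2.60 and 1.59) were higher on both days.

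**Figure D4:**
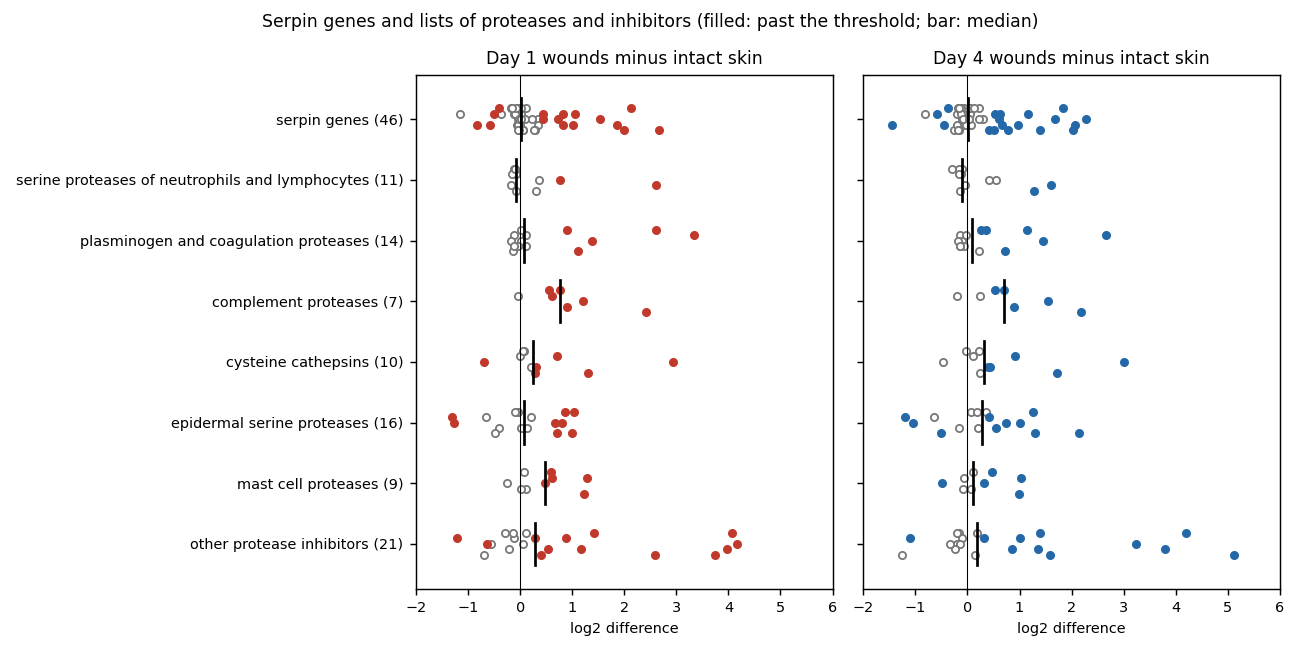
Log2 difference from intact skin of the 46 serpin genes and of 7 lists of proteases and other inhibitors on day 1 (left) and day 4 (right), with filled points for genes with an adjusted p under 0.05 and bars at the medians. Complement proteases have medians of 0.77 and 0.71, the serpin genes medians near 0 with single genes between −1.45 and 2.68. The list of plasminogen and coagulation genes also holds genes that are not proteases.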

How the data were processed

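Affymetrix mouse gene arrays were hybridised with RNA of 6 skin samples, 2 per group, and per the labels RNA integrity numbers ran from 7.7 to 9.1. The deposited values are log2 intensities made by the authors with RMA, per the submitters' processing notes, with the version not given in the sources used here. Of 35556 probe sets, 21789 carried a single symbol in the array annotation, and the probe set with the highest mean represented each of 19938 genes. Of the 46 serpin genes all had the same symbol in RefSeq (GRCm38.p6, used for names and order).

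A single model over the 6 arrays was fitted in limma 3.58.1 (R 4.3.3) with lmFit and eBayes at its default prior, which left 3 residual degrees of freedom and added 3.4 from the prior. Two-sided p-values were adjusted over all genes by Benjamini-Hochberg. The fit was tested on simulated data. Tests across genes give adjusted p-values with a threshold of 0.05. The number of arrays limits the precision.

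Values of every array were to be given for genes that passed and changed at least 2-fold, and for a few serpins with known roles whatever they did. Values of the other genes that passed were added. Of the protease and inhibitor lists, up to 4 members with the smallest p were to be named, and some with known serpin partners were added. Members, lists and rules were chosen with earlier results of these data known. Alternatives covered normalization, the prior, the arrays in the fit, dim genes, the choice of probe set, a replicate block and leaving out each array.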

Additional observations from a re-analysis of the deposited data

Results flagged for a closer look

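For 3 serpin genes the change from intact skin differed between the days, by the contrast of day 4 with day 1 wounds. Serpinb3a was higher on day 4 than on day 1 by 0.955 and Serpina9 by 0.75 on the log2 scale, and Serpinb13 was lower, at −0.615. The adjusted p-values were 0.0374, 0.0233 and 0.0291. Leaving out any single array ended each of these calls, and Serpinb3a lay under the lower quartile on every array. The 2 arrays of a group allow no check for a stray sample within it.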

How the results depend on the processing

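No alternative turned the direction of a call. Of 38 calls of single serpin genes 22 held under every alternative that could be run, and the others were lost mostly when an array was left out: 15 without intact replicate 1, 15 without intact replicate 2, 9 without day 1 wound replicate 2, 8 each without day 1 wound replicate 1 and day 4 wound replicate 2, and 4 without day 4 wound replicate 1. With 1 array of a group left, that array is taken to vary like the others. Leaving out 1 array in turn gave 8 to 13 serpin genes higher and 2 to 4 lower on day 1 (12 and 4 with all arrays), 10 to 17 higher and 2 to 5 lower on day 4 (15 and 4), 0 higher and 0 lower between the days (2 and 1), and 11 to 20 by the moderated F test (17, or 37.0% of the serpin genes, against 30.7% of all genes). Removing the dimmest 30% of genes left 20 of the 46 to test, with 2 lower on day 1, 2 lower on day 4 and 0 higher between the days. With only the arrays compared, 0 were higher and 0 lower between the days. A mean-variance trend gave 2 lower between the days. Because each serpin gene had 1 probe set, averaging probe sets changed only the other genes. Deviations of arrays with the same replicate number correlated at 0.685 between day 1 and day 4 wounds, 0.014 between intact skin and day 1 and 0.023 between intact skin and day 4, and the labels do not say that a number marks shared animals. With the replicate block 2 serpin genes were lower between the days, and no call was lost. Cyclic loess cost 2 calls and quantile normalization 1, those of Serpina4-ps1.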

Other observations

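Several serpin symbols stand on 5 probe sets, which were left out of the gene values. In a fit over all 35556 probe sets, 2 of them, shared by Serpina1a to Serpina1e, and 3, shared by Serpinb9d to Serpinb9g, gave 0 calls in any comparison by limma, with 1 at an unadjusted p under 0.05 on day 1, 0 on day 4 and 1 between the days. The lowest adjusted p-values were 0.119, 0.480 and 0.180. The brighter of the Serpina1 probe sets had 7.65 and 7.50 in day 1 wounds and 7.60 and 7.82 in day 4 wounds, against 7.77 and 7.56 in intact skin, and the groups overlapped.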
